A study of Arabidopsis with 12 samples.

Results

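The genes described here are those of the mitochondrial genome of Arabidopsis thaliana, 18 of the 16550 genes analysed, read by 27 of the 38408 probe sets of an Affymetrix array. They were to be chosen as single-gene probe sets with a locus name beginning with ATMG. The probe annotation lists 0 such loci and names organelle genes by symbol. A gene was therefore taken as a member where its symbol, or a synonym of it, belongs to a gene on RefSeq's mitochondrial chromosome and its gene identifier is none of a nuclear or plastid gene. The 18 members cover 18 of the 32 protein-coding symbols that RefSeq gives for that chromosome. They hold 8 of 9 subunits of complex I, 2 of 3 of complex IV, 1 of 5 of the ATP synthase, 4 of 5 cytochrome c maturation genes, 1 of 7 ribosomal protein genes, and matR and mttB. Complex III is represented by 0 of 1 gene, and 0 unassigned reading frames and 0 structural RNAs were found, so these classes were not analysed here. A further 27 probe sets list a mitochondrial gene together with other genes and lie outside the rule.

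Total RNA of whole seedlings was compared in 2 genotypes on 2 media, in 4 groups of 3 arrays. Col-0 is the standard laboratory accession of Arabidopsis, and tori 35-7 is a genotype that the labels name without describing it, in a study of the growth-controlling TOR kinase. Seedlings of both genotypes grew for 5 days at 22 °C, were moved to control medium with 0.8% agar or water-deficit medium with 2% agar, and were sampled 72 h later at 8 days of age. Below, control and water deficit after a genotype name the group on that medium.

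Plant mitochondria keep a small genome that encodes core subunits of the respiratory chain, while most subunits of the same complexes are encoded in the nucleus and imported. Complex I takes electrons from NADH, complex IV passes them to oxygen, and the ATP synthase uses the resulting proton gradient to make ATP. Many plant mitochondrial transcripts are spliced and edited by nuclear-encoded factors, and some, among them those of nad1, nad2 and nad5, are joined from separately transcribed pieces. Poly(A) tails in plant mitochondria mark RNA for decay, and the labels do not say how the RNA was primed for labelling. A large copy of mitochondrial DNA also lies in a nuclear chromosome of Col-0, so a probe set given to 1 mitochondrial gene is not certain to read that gene alone. The array number limits the precision, and in whole seedlings a different number of mitochondria or cells cannot be told apart from a different amount of each transcript per cell.

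No member passed the test in any of 5 comparisons, and the differences were small. The tests were limma's on log2 levels over all 16550 genes, with Benjamini-Hochberg adjustment and a threshold of 0.05. Nothing in the labels tells whether the replicates of a group were grown apart, so each p-value rests on the spread between these arrays, which may be technical. For each of the 18 members, read by its brightest probe set, the unadjusted 95% interval of each difference lay within 1 on the log2 scale. That is within 2-fold, the bounds reaching from -0.60 to 0.86. Intervals of the further probe sets of nad1, nad2 and nad5 are not given here, and the bound is not stated for them. Their SEs reached 0.43, for the interaction at a nad1 probe set with a mean log2 level of 5.28. The median SD between arrays of a group was 0.13 for the members, against 0.20 for all genes and 0.13 for the 150 genes with a mean log2 level above 9. Member levels, as means over 12 arrays, ran from 6.70 for ccmB to 11.72 for nad1. Brightness depends on the probes of each probe set, so no order of transcript abundance is read from these levels.

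2 arrays had a narrower spread of values than the others and touch every comparison they enter. The interquartile range over genes was 2.29 on Col-0 water deficit replicate 1 and 2.41 on tori 35-7 control replicate 1, against 2.68 to 2.90 on the other arrays. The median log2 level of the 18 members was 10.20 and 10.22 on these arrays, against 10.54 and 10.65 on the other Col-0 water deficit arrays and 10.46 and 10.47 on the other tori 35-7 control arrays. It was 10.31, 10.33 and 10.15 in Col-0 control and 10.64, 10.62 and 10.63 in tori 35-7 water deficit. Of the 18 members, 6 had their lowest value of all 12 arrays on Col-0 water deficit replicate 1 and 6 on Col-0 control replicate 3, while 10 had their highest on a tori 35-7 water deficit array. The same counts were not made over all genes, so they are not read as a trait of the members. The part of the narrow spread in the results was not tested, and counts without both arrays are given beside those with them.

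Of the genes used to check the tissue, 3 were measured, and 1 of them changed with the groups compared here. LHCB4.2, a light-harvesting antenna protein of green tissue, had mean log2 levels of 4.55 (control) and 5.26 (water deficit) in Col-0 and of 5.06 and 6.14 in tori 35-7. It rose by 0.71 under water deficit in Col-0 (adjusted p = 0.0372) and by 1.08 in tori 35-7 (adjusted p = 0.00271), and under water deficit it was higher in tori 35-7 than in Col-0 by 0.88 (adjusted p = 0.0198). PSAE-1, a photosystem I subunit, was at 9.62, 9.54, 9.64 and 10.15 in the same order and passed no test, its smallest adjusted p being 0.0847 between the genotypes under water deficit. EXPA7, an expansin of root hairs, lay between 4.25 and 4.39 in all 4 groups. The part of green tissue in the members' differences was not tested.

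**Figure D1:**
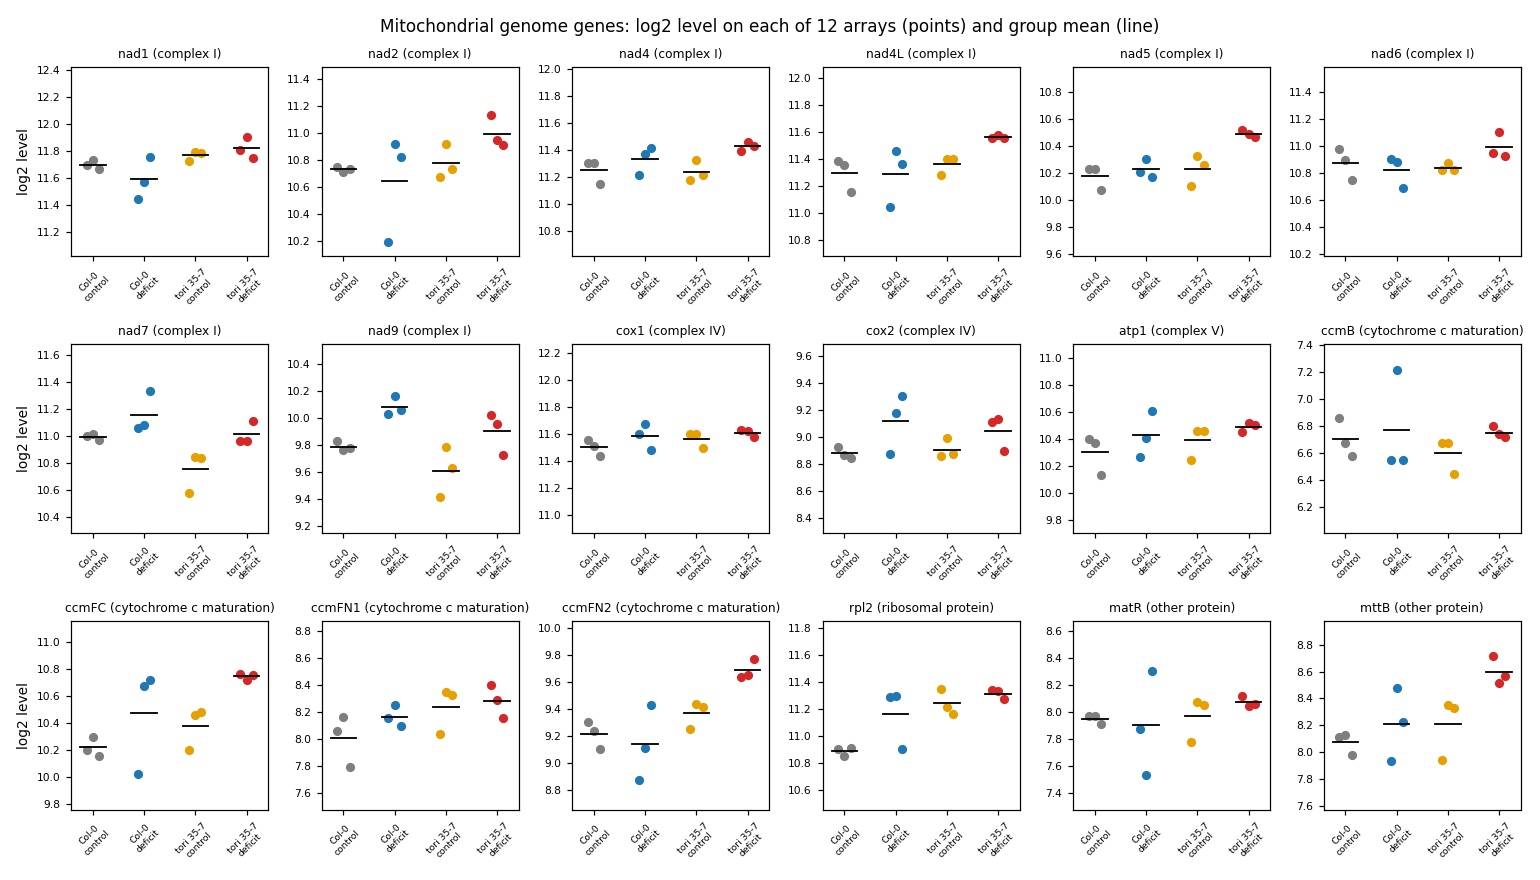
Log2 level (y axis) of the 18 mitochondrial genome genes in the 4 groups (x axis), with 3 points per group for its 3 arrays and a line for the group mean. The mean of tori 35-7 water deficit lies above that of tori 35-7 control in all 18 panels, by 0.04 to 0.39, and no difference passed the test.

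The genes of complex I encode membrane subunits that carry the proton channels (nad1, nad2, nad4, nad4L, nad5 and nad6) and subunits of the arm that faces the matrix (nad7 and nad9). nad1 was at 11.69, 11.73 and 11.66 in Col-0 control and at 11.44, 11.57 and 11.76 in Col-0 water deficit. In tori 35-7 it was at 11.72, 11.79 and 11.78 on control medium and at 11.80, 11.90 and 11.75 under water deficit. Each pair of groups compared overlapped, and the largest of its differences, between the genotypes under water deficit, was 0.23 ± 0.12 (SE, n = 3 against 3; limma's adjusted p = 0.451).

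nad4L, the brightest complex I gene after nad1, had log2 levels of 11.38, 11.36 and 11.15 in Col-0 control and of 11.05, 11.46 and 11.36 in Col-0 water deficit. Its tori 35-7 levels were 11.28, 11.40 and 11.40 on control medium and 11.56, 11.58 and 11.55 under water deficit. The tori 35-7 water deficit arrays lay above all 9 others, by 0.20 ± 0.13 over tori 35-7 control (adjusted p = 0.733) and by 0.27 ± 0.13 over Col-0 water deficit (adjusted p = 0.409). nad2 had its lowest value of all arrays, 10.19, on Col-0 water deficit replicate 1 and its highest, 11.13, on tori 35-7 water deficit replicate 1. Its other values were 10.74, 10.71 and 10.73 in Col-0 control, 10.92 and 10.82 in Col-0 water deficit, 10.67, 10.92 and 10.74 in tori 35-7 control, and 10.94 and 10.91 in tori 35-7 water deficit. All groups of nad2 overlapped, and the difference between the genotypes under water deficit was 0.35 ± 0.17 (adjusted p = 0.404).

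Both matrix-arm genes were higher under water deficit in each genotype and lower in tori 35-7 than in Col-0 on each medium, without passing the test in any comparison. nad9 was at 9.83, 9.76 and 9.78 in Col-0 control and at 10.03, 10.17 and 10.06 in Col-0 water deficit, groups that did not overlap. In tori 35-7 it was at 9.42, 9.79 and 9.63 on control medium and at 10.03, 9.96 and 9.73 under water deficit, groups that did. The differences were 0.30 ± 0.13 in Col-0 (adjusted p = 0.358) and 0.29 ± 0.13 in tori 35-7 (adjusted p = 0.500), and the test of the change between them gave -0.01 ± 0.19 (adjusted p = 0.996).

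nad7 was at 10.9995, 11.02 and 10.97 in Col-0 control and at 11.06, 11.08 and 11.33 in Col-0 water deficit. In tori 35-7 it was at 10.58, 10.84 and 10.84 on control medium and at 10.97, 10.96 and 11.11 under water deficit. Water deficit arrays lay above control arrays in both genotypes, by 0.16 ± 0.13 in Col-0 (adjusted p = 0.665) and 0.26 ± 0.13 in tori 35-7 (adjusted p = 0.565). On control medium the tori 35-7 arrays lay below the Col-0 arrays, at -0.24 ± 0.13 (adjusted p = 0.587), with the narrow tori 35-7 array the lowest. The other complex I genes, nad4, nad5 and nad6, had differences from -0.05 to 0.26 over the 4 comparisons of groups.

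nad1, nad2 and nad5 are read by 7, 3 and 2 probe sets, which can lie in different exons of these trans-spliced genes; the sources used here do not give the exon. The mean log2 level of the nad1 probe sets ran from 2.83 to 11.72, that of the nad2 probe sets from 7.96 to 10.79, and the nad5 probe sets were at 9.92 and 10.28. None of these 12 probe sets, fitted with all single-gene probe sets, passed limma's test in any of 5 comparisons. Shares over those probe sets are not given here, so those over all genes stand beside the counts. For the adjusted test they ran from 0.00604% to 1.23%. An unadjusted p under 0.05 was found for 1 under water deficit in Col-0 (12.9% of all genes) and for 1 in tori 35-7 (9.55%). It was found for 3 between the genotypes under water deficit (12.8%) and for 0 in the other comparisons. The smallest adjusted p, 0.107, was that of the third brightest nad1 probe set between the genotypes under water deficit. That probe set was at 9.99, 9.96 and 9.84 in Col-0 control, 9.09, 9.38 and 9.73 in Col-0 water deficit, 9.87, 10.15 and 10.15 in tori 35-7 control, and 10.004, 9.89 and 9.999 in tori 35-7 water deficit. Its Col-0 water deficit arrays lay below the 9 others, with differences of -0.53 ± 0.16 from Col-0 control (adjusted p = 0.130) and 0.56 ± 0.16 for tori 35-7 over Col-0. The brightest nad1 probe set differed by -0.11 ± 0.12 and 0.23 ± 0.12 in the same comparisons. Whether these probe sets differ was not tested, and the third brightest was picked for its small p.

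**Figure D2:**
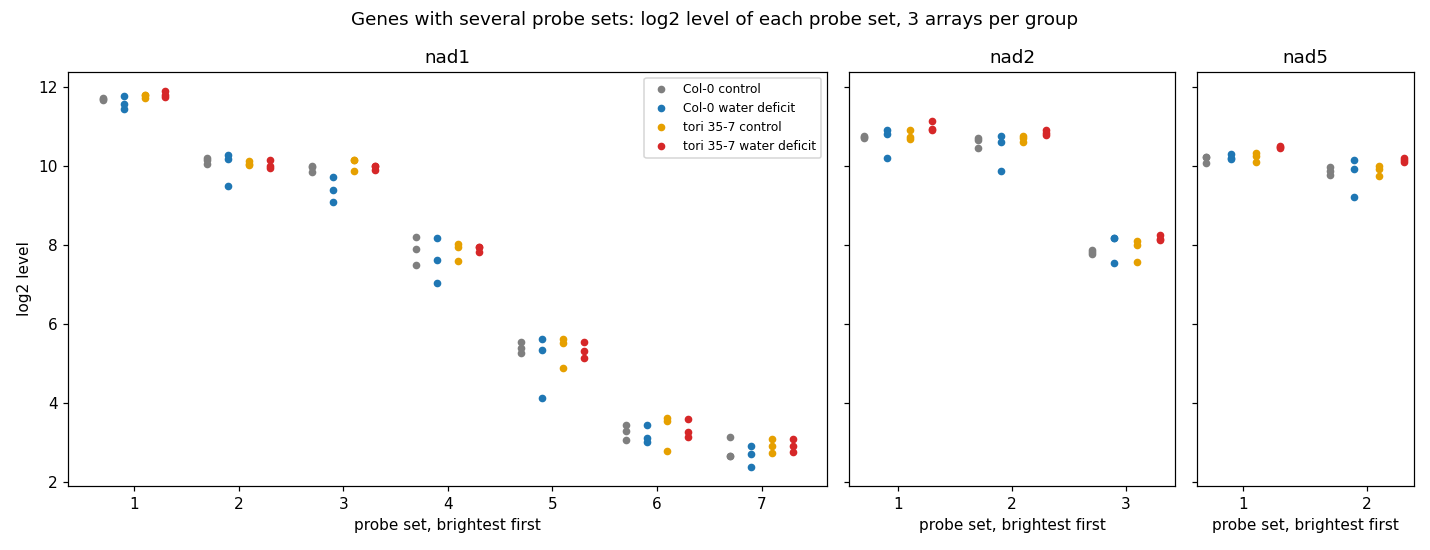
Log2 level (y axis) of each probe set of nad1, nad2 and nad5 in the 4 groups (x axis), with a point per array. Probe sets of nad1 span mean levels from 2.83 to 11.72, and no probe set passed the test in any comparison.

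Complex IV was represented by cox1 and cox2, which encode the subunits that bind its heme and copper centres, and the ATP synthase by atp1, the alpha subunit of its catalytic head. cox1 varied least between arrays of a group, with a pooled SD of 0.07. It was at 11.56, 11.51 and 11.44 in Col-0 control, 11.60, 11.67 and 11.48 in Col-0 water deficit, 11.60, 11.60 and 11.50 in tori 35-7 control, and 11.63, 11.62 and 11.58 in tori 35-7 water deficit. All groups of cox1 overlapped, its differences in the 4 comparisons of groups ran from 0.03 to 0.08, and its whole range over 12 arrays was 0.24.

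cox2 was at 8.93, 8.86 and 8.85 in Col-0 control and at 8.87, 9.17 and 9.30 in Col-0 water deficit, with the narrow array the lowest of the latter. It was at 8.86, 8.99 and 8.87 in tori 35-7 control and at 9.11, 9.14 and 8.89 in tori 35-7 water deficit. These groups overlapped, and its differences under water deficit were 0.24 ± 0.13 in Col-0 (adjusted p = 0.503) and 0.14 ± 0.13 in tori 35-7 (adjusted p = 0.866). atp1 was at 10.40, 10.37 and 10.13 in Col-0 control, 10.26, 10.41 and 10.60 in Col-0 water deficit, 10.24, 10.46 and 10.46 in tori 35-7 control, and 10.45, 10.51 and 10.50 in tori 35-7 water deficit. Its groups overlapped too, and its differences ran from 0.06 to 0.12.

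The cytochrome c maturation genes ccmB, ccmFC, ccmFN1 and ccmFN2 encode parts of the machinery that carries heme and attaches it to cytochrome c. ccmFN2 had the largest difference of any member, between the genotypes under water deficit. Its log2 levels were 9.30, 9.24 and 9.11 in Col-0 control, 8.87, 9.11 and 9.43 in Col-0 water deficit, 9.26, 9.44 and 9.42 in tori 35-7 control, and 9.64, 9.66 and 9.77 in tori 35-7 water deficit. The tori 35-7 water deficit arrays lay above all 9 others, while the Col-0 water deficit arrays spread from 8.87 to 9.43. Under water deficit the mean was 9.69 ± 0.07 in tori 35-7 and 9.14 ± 0.28 in Col-0 (SD, n = 3 each), a difference of 0.55 ± 0.14 (SE), or 1.46-fold, with an adjusted p of 0.0912. Over 12 fits that each left out 1 array the difference ran from 0.42 to 0.70, with limma's adjusted p from 0.0297 to 0.299. It passed the test in 1 of them, at 0.70 without Col-0 water deficit replicate 3, the highest array of that group. Over the other settings the adjusted p ran from 0.0525 to 0.330. The response to water deficit was -0.08 ± 0.14 in Col-0 and 0.32 ± 0.14 in tori 35-7, and the interaction, 0.39 ± 0.20, had an adjusted p of 0.831.

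ccmFC, the brightest gene of this class, was at 10.20, 10.30 and 10.16 in Col-0 control and at 10.02, 10.67 and 10.72 in Col-0 water deficit. It was at 10.20, 10.46 and 10.48 in tori 35-7 control and at 10.77, 10.72 and 10.76 in tori 35-7 water deficit. The narrow array was the lowest of its group in both genotypes, by the wider gap in Col-0 water deficit, and the water deficit arrays lay above the control arrays without overlap in tori 35-7 but not in Col-0. The differences under water deficit were 0.25 ± 0.17 in Col-0 (adjusted p = 0.588) and 0.37 ± 0.17 in tori 35-7 (adjusted p = 0.508). Without both narrow arrays, a choice made after seeing the data, the Col-0 difference was 0.48 and passed the test (adjusted p = 0.0385).

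ccmFN1 was at 8.06, 8.17 and 7.80 in Col-0 control, 8.16, 8.25 and 8.10 in Col-0 water deficit, 8.04, 8.35 and 8.33 in tori 35-7 control, and 8.41, 8.29 and 8.16 in tori 35-7 water deficit. ccmB, the dimmest member, was at 6.86, 6.68 and 6.58 in Col-0 control, 6.55, 7.22 and 6.54 in Col-0 water deficit, 6.67, 6.67 and 6.44 in tori 35-7 control, and 6.80, 6.74 and 6.71 in tori 35-7 water deficit. The groups of ccmFN1 overlapped, and those of ccmB did so except in tori 35-7, where the water deficit arrays lay above the control arrays by 0.15 ± 0.17 on average (adjusted p = 0.899).

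rpl2, which encodes a protein of the large mitochondrial ribosomal subunit, stood at 10.91, 10.85 and 10.91 in Col-0 control, below 8 of the other 9 arrays. It was at 11.29, 11.30 and 10.90 in Col-0 water deficit, 11.35, 11.21 and 11.16 in tori 35-7 control, and 11.34, 11.33 and 11.27 in tori 35-7 water deficit. On control medium the groups did not overlap, with 11.24 ± 0.10 in tori 35-7 and 10.89 ± 0.03 in Col-0, a difference of 0.35 ± 0.13 (adjusted p = 0.333). Under water deficit the genotypes overlapped and differed by 0.15 ± 0.13 (adjusted p = 0.686). Its response to water deficit was 0.27 ± 0.13 in Col-0 (adjusted p = 0.406) and 0.07 ± 0.13 in tori 35-7 (adjusted p = 0.954), with an interaction of -0.20 ± 0.18 (adjusted p = 0.884).

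mttB encodes a membrane protein related to the TatC subunit of bacterial twin-arginine protein export, and matR a maturase that acts in intron splicing. mttB was at 8.11, 8.13 and 7.98 in Col-0 control, 7.93, 8.47 and 8.23 in Col-0 water deficit, 7.94, 8.35 and 8.33 in tori 35-7 control, and 8.72, 8.51 and 8.57 in tori 35-7 water deficit. Its tori 35-7 water deficit arrays were the highest 3 of the 12, and the narrow arrays were the lowest 2. The differences of this group were 0.39 ± 0.16 from tori 35-7 control (adjusted p = 0.400) and 0.39 ± 0.16 from Col-0 water deficit (adjusted p = 0.306). matR was at 7.97, 7.97 and 7.91 in Col-0 control, 7.87, 7.54 and 8.30 in Col-0 water deficit, 7.78, 8.08 and 8.05 in tori 35-7 control, and 8.12, 8.05 and 8.06 in tori 35-7 water deficit. Its groups overlapped, the Col-0 water deficit arrays spreading most, and its differences ran from -0.05 to 0.17.

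**Figure D3:**
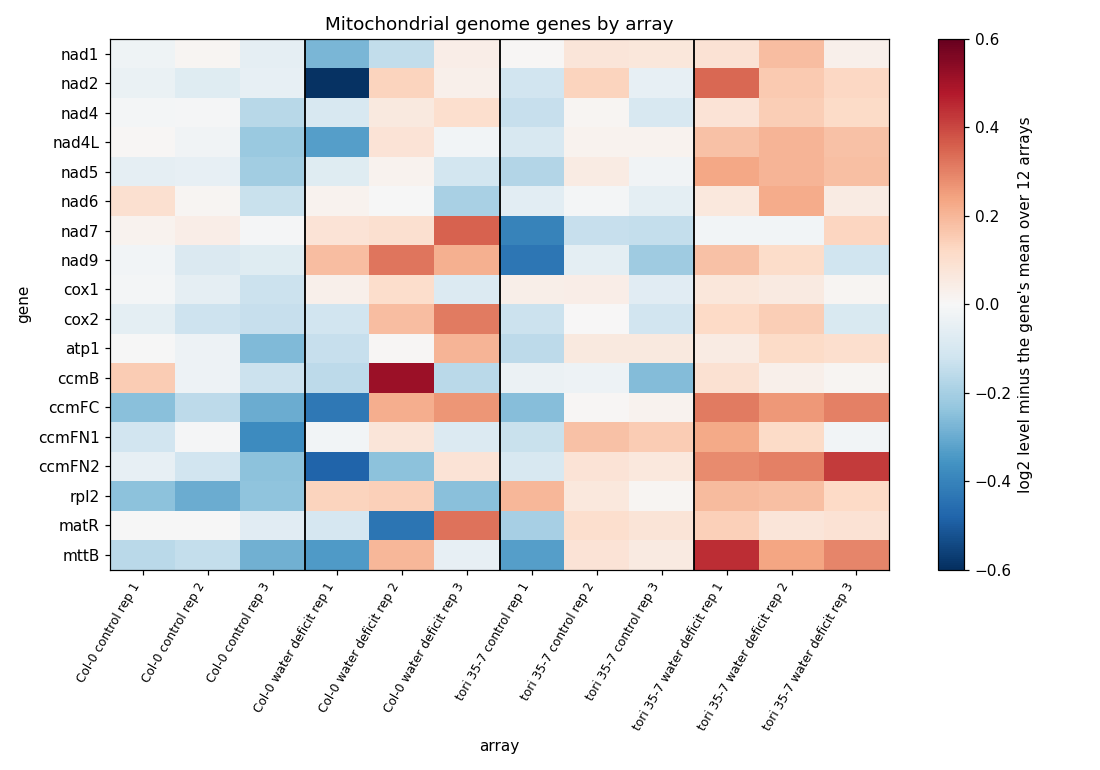
Deviation of each of the 18 genes (rows) from its own mean over 12 arrays (log2, colour from -0.6 to 0.6) on each array (columns, by group and replicate). Col-0 water deficit replicate 1 holds the lowest value of 6 genes, as does Col-0 control replicate 3, and the 3 tori 35-7 water deficit arrays hold the highest values of 5, 4 and 1 genes. The same counts were not made over all genes.

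The response of the mitochondrial genome to water deficit in Col-0 was small. Of the 18 members, 0 passed limma's adjusted threshold, against 1.23% of all genes, and 1 (nad9) had an unadjusted p under 0.05, against 12.9% of all genes. A positive difference was found for 12 of 18, against 52.7% of all genes, with a median of 0.08 and a range of -0.11 to 0.30. Groups did not overlap for 2 members, nad7 and nad9, both higher under water deficit, against 7.26% of all genes in that direction. With both narrow arrays left out, 15 of 18 were positive and the median was 0.15. With each of the members' 27 probe sets taken on its own, 13 were positive and 14 negative, with a median of -0.00863. All 7 probe sets of nad1 were among the negative ones, the dimmest of them at mean log2 levels of 2.83 and 3.28.

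In tori 35-7 all 18 members had a positive difference under water deficit, against 51.6% of all genes, with a median of 0.17 and a range of 0.04 to 0.39. None of them passed the test: 0 of 18 had an adjusted p under 0.05 by limma, against 1.16% of all genes, and 5 (ccmFC, ccmFN2, mttB, nad5 and nad9) had an unadjusted p under 0.05, against 9.55%. In 9 of 18 the water deficit arrays lay above the control arrays without overlap, against 11.1% of all genes in that direction. These were ccmB, ccmFC, ccmFN2, mttB, nad4, nad4L, nad5, nad6 and nad7. Members share RNA, arrays and scaling, so 18 like signs are not 18 separate observations. Their median log2 level was 10.43, against 2.99 for all genes, so the shares of all genes come from mostly dimmer genes. With the narrow arrays removed, 17 of 18 were positive, with a median of 0.16. Of the 27 probe sets taken on their own 24 were positive, with a median of 0.15, and the 3 negative ones all belonged to nad1.

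The difference between these responses was not shown. In the interaction 0 of 18 members passed limma's threshold, against 0.00604% of all genes, and 0 had an unadjusted p under 0.05, against 6.08%. The interaction was positive, that is higher in tori 35-7, for 12 of 18 members with a median of 0.11, against 50.8% of all genes. The largest after ccmFN2 were nad2 at 0.31 ± 0.24 (adjusted p = 0.856) and mttB at 0.26 ± 0.22 (adjusted p = 0.878). When both narrow arrays were left out, 9 of 18 were positive and the median was -0.00117.

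Between the genotypes on control medium 0 of 18 members passed the test, against 0.568% of all genes, and 1 (rpl2) had an unadjusted p under 0.05, against 9.97%. The differences ran from -0.24 to 0.35 with a median of 0.06, and 13 of 18 were positive, higher in tori 35-7, against 48.5% of all genes. Groups did not overlap for rpl2, higher in tori 35-7, against 7.86% of all genes in that direction, and for nad7, lower, against 11.4%. Under water deficit 0 of 18 passed, against 0.822%, and 3 (ccmFN2, mttB and nad5) had an unadjusted p under 0.05, against 12.8%. The differences ran from -0.18 to 0.55 with a median of 0.16, and 14 of 18 were positive, against 47.5% of all genes. In 5 members, ccmFN2, mttB, nad4L, nad5 and nad6, tori 35-7 lay above Col-0 without overlap, against 8.61% of all genes in that direction, and in nad9 it lay below, against 8.05%. Without both narrow arrays 14 of 18 were positive on control medium (median 0.10) and 13 of 18 under water deficit (median 0.12). These comparisons share arrays with those of water deficit and are not separate evidence.

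**Figure D4:**
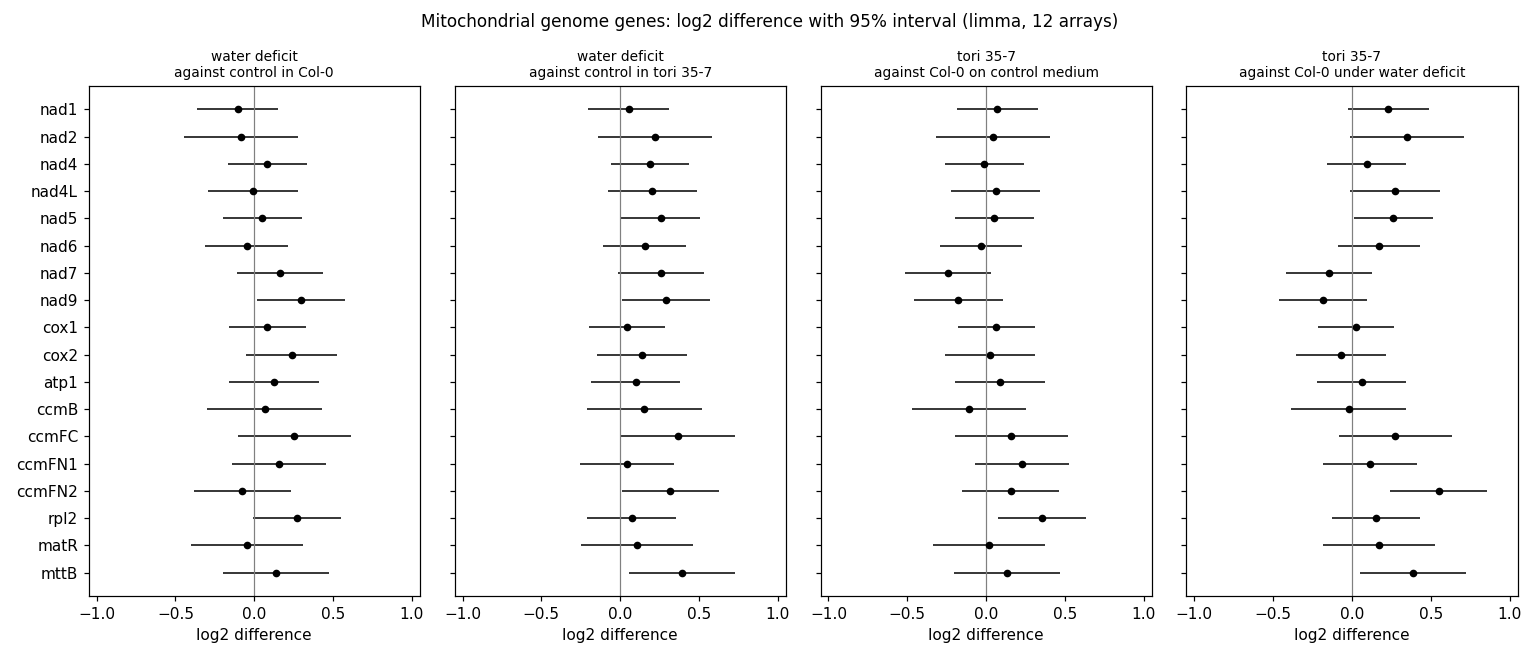
Log2 difference (x axis) of each of the 18 genes (y axis) in the 4 comparisons of groups, with its unadjusted 95% interval from limma. All intervals lie between -0.51 and 0.86, and the estimates in the panel of water deficit in tori 35-7 are all above 0.

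Nuclear genes for the same complexes were set beside the mitochondrial ones. Measured were 5 of 13 listed nuclear subunits of complex I, 15 of 18 of complex III, cytochrome c and complex IV, and 5 of 7 of the ATP synthase. Under water deficit in tori 35-7, 22 of these 25 were negative, with 4 of 5, 13 of 15 and 5 of 5 in the lists and medians of -0.14, -0.15 and -0.17, and 22 of 25 also without both narrow arrays. Of all genes 51.6% were positive in this comparison. None of the 25 passed limma's test, against 1.16% of all genes. An unadjusted p under 0.05 was found for 1, against 9.55% of all genes. It was AT2G47380, a complex IV subunit at -0.45 ± 0.18 (adjusted p = 0.389). In Col-0 under water deficit 4 of 5, 12 of 15 and 5 of 5 were negative, with medians of -0.17, -0.08 and -0.06. None of them passed limma's test, against 1.23% of all genes, and 2, 2 and 0 had an unadjusted p under 0.05, against 12.9%. Together 21 of the 25 nuclear subunits were negative in Col-0, where 12 of 18 mitochondrial genes and 52.7% of all genes were positive. Whether nuclear and mitochondrial subunits differed was not tested in either genotype. Between the genotypes on control medium 3 of 5, 11 of 15 and 5 of 5 were positive, against 48.5% of all genes. Under water deficit these were 4 of 5, 8 of 15 and 4 of 5, against 47.5%.

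**Figure D5:**
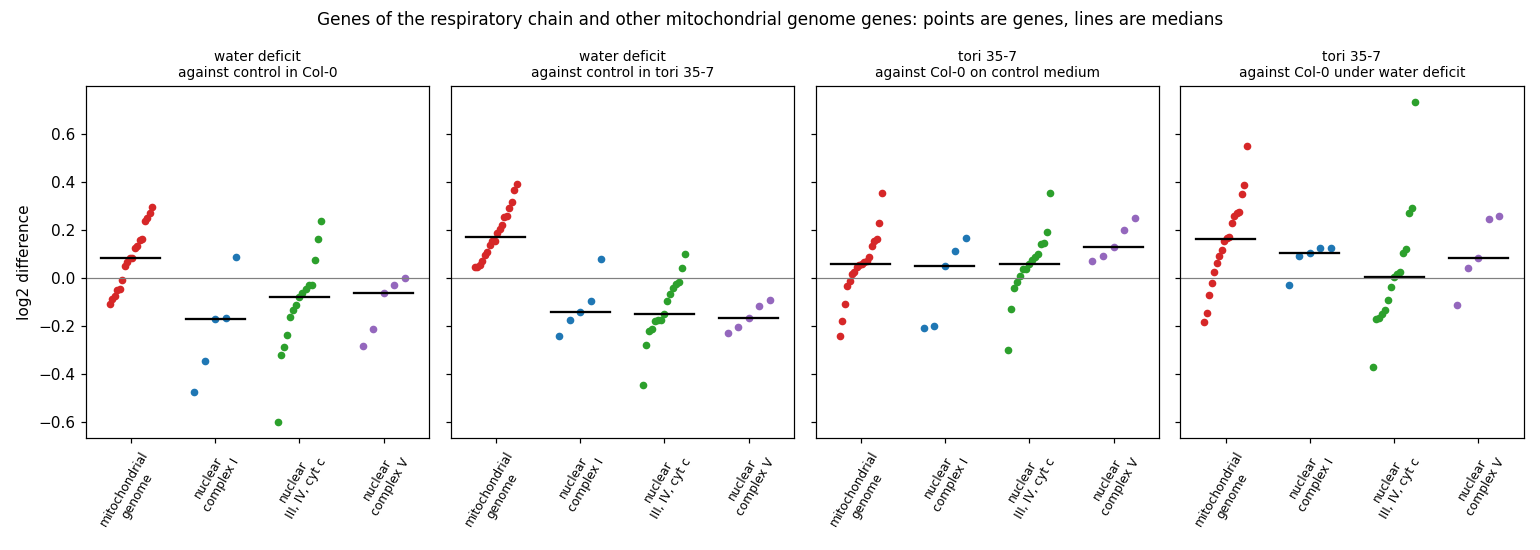
Log2 difference (y axis) of the mitochondrial genome genes and of 3 lists of nuclear respiratory subunits in the 4 comparisons of groups, with a point per gene and a line at each median. In tori 35-7 under water deficit the mitochondrial median is 0.17 and the nuclear medians are -0.14, -0.15 and -0.17.

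1 nuclear gene of these lists passed the test in 1 comparison, where 136 of all 16550 genes (0.822%) passed. CYTC-2 (AT4G10040), one of the genes for cytochrome c, the protein to which the maturation genes' products attach heme, was at 5.61, 5.72 and 5.74 in Col-0 control and at 4.90, 5.26 and 5.10 in Col-0 water deficit. It was at 5.78, 6.17 and 6.18 in tori 35-7 control and at 5.75, 5.98 and 5.73 in tori 35-7 water deficit. The Col-0 water deficit arrays lay below the 9 others. Under water deficit CYTC-2 was higher in tori 35-7 than in Col-0, at 5.82 ± 0.14 against 5.09 ± 0.18 (SD, n = 3 each), a difference of 0.73 ± 0.15 or 1.66-fold (limma's adjusted p = 0.0337). The call was kept in 12 of 20 alternative settings, and in 5 of the 12 that each left out 1 array, with adjusted p up to 0.159 among the latter. Its response to water deficit in Col-0 was -0.60 ± 0.15 (adjusted p = 0.0656), which passed the threshold in 5 of 20 alternative settings, 2 of them with 1 array left out. The adjusted p ran from 0.0329 to 0.221 over the 20 settings, and the interaction had an adjusted p of at least 0.474 in every setting that left out 1 array.

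Genes of alternative respiration, which carry electrons around the proton-pumping complexes, were represented by 4 of 14 listed, those of the response to mitochondrial dysfunction by 3 of 7, and nuclear genes of mitochondrial transcription and RNA processing by 4 of 18. With all 12 arrays none passed limma's test in any of 5 comparisons. At most 2, 2 and 1 of them had an unadjusted p under 0.05 in a comparison. Of all genes 6.08% to 12.9% had such a p in the 5 comparisons. NDB2, an external NAD(P)H dehydrogenase, was at 4.76, 4.88 and 3.82 in Col-0 control, 4.92, 5.13 and 5.05 in Col-0 water deficit, 5.06, 4.99 and 5.00 in tori 35-7 control, and 5.83, 5.61 and 5.62 in tori 35-7 water deficit. Water deficit arrays lay above control arrays in both genotypes, by 0.55 ± 0.21 in Col-0 (adjusted p = 0.276) and 0.67 ± 0.21 in tori 35-7 (adjusted p = 0.211). The Col-0 difference of NDB2 was 0.21 without Col-0 control replicate 3, its lowest array (adjusted p = 0.675). In that same fit NDB2 passed limma's test in tori 35-7, at an unchanged 0.67 (adjusted p = 0.0213). It also passed there between the genotypes under water deficit, at 0.66 (adjusted p = 0.0356). In the other fits that left out 1 array it passed in neither comparison.

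NDC1, an NAD(P)H dehydrogenase of the same family, had the smallest unadjusted p of the alternative respiration genes in Col-0. It was at 5.41, 5.53 and 5.37 in Col-0 control, 4.38, 5.13 and 5.09 in Col-0 water deficit, 5.20, 5.30 and 5.17 in tori 35-7 control, and 4.88, 4.89 and 5.15 in tori 35-7 water deficit. Its water deficit arrays lay below the control arrays in both genotypes, at -0.57 ± 0.18 in Col-0 (adjusted p = 0.147) and -0.25 ± 0.18 in tori 35-7 (adjusted p = 0.768), and the Col-0 difference was -0.33 without the narrow array (adjusted p = 0.266). NDB3 of that family differed by 0.37 ± 0.13 in tori 35-7, without overlap (adjusted p = 0.280), and by 0.03 ± 0.13 in Col-0, with overlap. It was dim, with a mean log2 level over all arrays of 2.14, against a median of 2.99 over all genes. AT5G51440, a small heat shock protein of mitochondria, differed by 0.44 ± 0.15 in Col-0 (adjusted p = 0.203) and 0.43 ± 0.15 in tori 35-7 (adjusted p = 0.288), without overlap in either. AT5G09570, of the same list, lay lower under water deficit without overlap in tori 35-7, at -0.29 ± 0.14 (adjusted p = 0.513), and overlapped in Col-0 at -0.15 ± 0.14 (adjusted p = 0.731). Its mean log2 level over all arrays, 2.25, also lay below the median of all genes. The smallest adjusted p among the transcription and RNA processing genes was 0.401, between the genotypes under water deficit.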

How the data were processed

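Each of 12 Affymetrix arrays, 3 per group, received cRNA prepared from 100 ng of total RNA, per the labels' protocols. The deposited values, 1 per probe set and array, were read as log2 levels from their range of 1.13 to 13.2, because the scale is not named. Per the submitters' processing notes the authors used Transcriptome Analysis Console 4.0.1. Not given in the sources used here are the background correction, the normalization and the summarization, and what they do to these levels could not be checked.

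The probe annotation gives 1 gene to 16722 probe sets and several to 759, and 20927 are unnamed here. Names were updated through RefSeq's gene table (TAIR10.1), which matched 16411 of 16550 genes; 5 members were named through a synonym, and 0 member identifiers are in that table. Of several probe sets of a gene, the brightest by mean over all arrays stood for it. The model had 1 mean per group over all 12 arrays (limma 3.58.1, lmFit and eBayes, R 4.3.3), without covariates, and was checked on simulated data. P-values are two-sided, adjusted by Benjamini-Hochberg over all 16550 genes for each of 5 comparisons.

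Named with values on every array were the brightest 2 members of each class and, in each comparison, the 3 largest positive and 3 largest negative differences. From each nuclear list up to 3 genes with the smallest unadjusted p could be named. nad4, nad5 and nad6 fall outside this rule and were named after their values were seen. The members and lists were chosen with earlier results of these data known. Alternatives were quantile normalization, median centring, a filter on dim genes, array weights, trended and robust priors, each probe set on its own, only the arrays compared, a replicate block, and each array left out.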

Additional observations from a re-analysis of the deposited data

Results flagged for a closer look

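AT3G15640, a nuclear-encoded subunit of complex IV, had differences of opposite sign under water deficit in the 2 genotypes, without overlap of the groups compared. Neither response had an unadjusted p under 0.05 by limma. Groups lay apart for 7.26% of all genes in Col-0 (higher) and for 7.77% in tori 35-7 (lower). The closest tori 35-7 arrays of this gene were at 6.925 (control) and 6.922 (water deficit). Its log2 levels were 7.00, 6.80 and 6.95 in Col-0 control, 7.15, 7.12 and 7.19 in Col-0 water deficit, 6.98, 6.93 and 6.96 in tori 35-7 control, and 6.79, 6.64 and 6.92 in tori 35-7 water deficit. The interaction was -0.41 ± 0.17 (SE, n = 3 per group), with limma's adjusted p = 0.807, so the difference between the genotypes did not pass the test.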

How the results depend on the processing

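The number of members past the threshold was 0 under the settings tried except in 2 cases. It was 1 for water deficit in Col-0 without the 2 arrays of narrowest spread, an alternative chosen after seeing the data (ccmFC), and 1 for tori 35-7 against Col-0 under water deficit without Col-0 water deficit replicate 3 (ccmFN2), a range of 0 to 1 over the 12 fits that each left out 1 array. The members' median ranged over those fits from 0.04 to 0.15 for water deficit in Col-0, 0.16 to 0.21 in tori 35-7, 0.05 to 0.16 for the interaction, 0.01 to 0.10 for the genotypes on control medium and 0.12 to 0.20 under water deficit. Over the other settings the medians ran, in the same order, from -0.00863 to 0.15, 0.12 to 0.18, -0.00117 to 0.17, 0.04 to 0.10 and 0.09 to 0.21. The first sign turned with each probe set on its own, where the 7 probe sets of nad1, all negative in Col-0, each count. The third turned without both narrow arrays. In tori 35-7 under water deficit 17 of 18 members were positive with quantile normalization, with array weights, without tori 35-7 control replicate 1, without tori 35-7 water deficit replicate 1 and without both narrow arrays, and all 18 in the other settings with 1 value per gene. With each probe set on its own 24 of 27 were positive.

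Counts over all genes depended more on the setting. Against 203 for water deficit in Col-0 they ran from 39 with only the arrays compared to 461 without both narrow arrays; against 192 in tori 35-7, from 70 without tori 35-7 water deficit replicate 3 to 668 with array weights; against 94 on control medium, from 11 without Col-0 control replicate 2 to 421 with array weights; and against 136 under water deficit, from 8 with only the arrays compared to 444 without both narrow arrays. The interaction, with 1, ran from 0 to 2 and could not be fitted with only the arrays compared.

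The deviations of same-numbered samples were correlated over 6 pairs of groups, with 3 numbers each. The 3 of 18 correlations above 0.1 all belonged to Col-0 water deficit with tori 35-7 control (0.40, 0.26 and 0.18), groups not compared directly. The largest was that of the 2 narrow arrays, both replicate 1 of their groups. Deviations were taken from group means, so the 3 correlations of a pair of groups are not separate. The others ran from -0.06 to 0.07, so the numbers were not taken to pair the samples. With the number as a replicate block 0 members passed in each of the 5 comparisons, with a smallest adjusted p of 0.0943, and the counts over all genes were 216, 211, 1, 98 and 160. The SEs of member differences between groups, 0.11 to 0.17 on the log2 scale, set what 3 arrays per group can show.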

Other observations

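Nuclear genes with locus names beginning AT2G07, the stretch that holds the nuclear copy of mitochondrial DNA, were measured for 68 genes. Whether their probe sets read these nuclear genes alone could not be checked. Between the genotypes on control medium 53 of 68 were higher in tori 35-7, against 48.5% of all genes, with a median log2 difference of 0.17. While 0 passed limma's adjusted test, against 0.568% of all genes, 12 had an unadjusted p under 0.05, all of them higher. Of all genes 9.97% had such an unadjusted p, 3.82% being higher. Under water deficit 41 of 68 were higher, against 47.5% of all genes, with a median of 0.13. An unadjusted p under 0.05 was found for 16, of which 14 were higher and 2 lower. Of all genes 12.8% had such a p, 7% being higher and 5.84% lower. Of the 68 genes 1 passed limma's adjusted test, against 0.822% of all genes. That gene, AT2G07768, was at 6.22 ± 0.11 in tori 35-7 and 5.48 ± 0.33 in Col-0 (SD, n = 3 each), a difference of 0.74 ± 0.16 or 1.67-fold (adjusted p = 0.0461). Its log2 levels under water deficit were 6.16, 6.14 and 6.35 in tori 35-7 and 5.10, 5.58 and 5.74 in Col-0. The narrow array was the lowest of the latter, and the result for this gene without that array is not given here. Without both narrow arrays 49 of 68 were higher in tori 35-7 on control medium and 47 of 68 under water deficit.

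The 27 probe sets that list a mitochondrial gene with other genes, 26 of them with nuclear genes, were tested among all 38408 probe sets. In each of 5 comparisons 0 passed limma's test, with 0 to 5 at an unadjusted p under 0.05. Shares over all probe sets are not given here, so those over all genes stand beside these counts. They ran over the 5 comparisons from 0.00604% to 1.23% for limma's adjusted test and from 6.08% to 12.9% for the unadjusted p. On control medium 26 of 27 were higher in tori 35-7, against 48.5% of all genes, with a median of 0.17. Of the 27, 3 had an unadjusted p under 0.05, against 9.97% of all genes. Under water deficit in tori 35-7 the 18 single-gene members were all positive. There 16 of 27 of these probe sets were positive, against 51.6% of all genes, with a median of 0.06. An unadjusted p under 0.05 was found for 0, against 9.55% of all genes.

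Of 63 genes of the chloroplast genome, the other organelle genome, 43 were positive under water deficit in tori 35-7, with a median of 0.05. In Col-0 17 were positive, with a median of -0.05, the shares of all genes being 51.6% and 52.7%. Without both narrow arrays the chloroplast counts were 42 and 48.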
